A study of Homo sapiens with 4 samples.

Results

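The genes described here encode the nuclear-encoded subunits of the oxidative phosphorylation (OXPHOS) complexes, measured by mRNA sequencing in PK-1 cells with and without overexpression of SPRR1A. They were chosen by gene symbol alone: every listed name that starts like a subunit of complexes I to V (NDUF, SDH, UQCR, COX or ATP5 followed by the subunit letter), leaving out assembly factors, antisense names and names ending in P and a number. This gave 89 of 53826 listed features. Of these, 80 encode subunits, 2 are expressed or annotated copies of a subunit gene (UQCRHL, ATP5L2), 2 are pseudogenes (COX8BP, ATP5J2LP), 2 are read-through transcripts that join a subunit gene to its neighbor (NDUFC2-KCTD14, ATP5J2-PTCD1), and 3 are related proteins (ATP5S, ATP5SL, COX7A2L). By complex, 37 belong to complex I, 4 to complex II, 9 to complex III, 17 to complex IV and 16 to complex V, and 6 to none. The name rule misses a few true subunits, among them COX4I1 and CYC1, which are described beside the others.

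PK-1 is an established human cell line from pancreatic ductal adenocarcinoma. In the stable model the cells carried a retroviral pMXs vector with FLAG-tagged SPRR1A (stable SPRR1A) or with the red fluorescent protein DsRed (stable DsRed, the control). In the transient model PK-1 cells were transfected with a pCAG plasmid encoding FLAG-tagged SPRR1A (transient SPRR1A) or green fluorescent protein (transient GFP, the control), and RNA was isolated 48 h later. Every group thus carried an introduced vector, and cells without a vector were not analysed here. Whether the stable cells were a pool or 1 clone is not given in the sources used here. The study asked what SPRR1A overexpression changes in gene expression. A single library stood for every condition, so differences could not be compared with a replicate spread, and p-values were not computed.

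Oxidative phosphorylation takes place in the inner mitochondrial membrane. Complexes I and II pass electrons from NADH and succinate to ubiquinone, complex III passes them to cytochrome c, and complex IV reduces oxygen. Complexes I, III and IV pump protons, and complex V, the ATP synthase, uses the resulting gradient to make ATP. Apart from complex II, each complex combines subunits from the nuclear genome with a few from the mitochondrial genome, so the nuclear genes described here supply most of the parts.

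The deposited value is the log2 of TPM (read counts divided by transcript length and scaled to the same total in every library), with a floor at 0, so that a TPM of 1 or less is listed at 0. Between 12964 and 13558 features lay above the floor per library, and the depth in reads is unknown. SPRR1A itself was at a log2 TPM of 10.93 with SPRR1A and 0.75 with DsRed in the stable model, and at 16.60 with SPRR1A and 3.56 with GFP in the transient model, the order that the labels give. Wherever 4 values are listed for a gene or complex, their order is SPRR1A and DsRed of the stable model, then SPRR1A and GFP of the transient model. The ductal markers KRT7, KRT8, KRT18, KRT19, EPCAM and CDH1 were at a log2 TPM of 7.03 to 12.94, MUC1 was at or below 0.90, and 9 of 13 markers of acinar, endocrine, stromal, endothelial and immune cells were listed at 0 in all 4 libraries. CD68 was the highest of the other 4, at 4.91. The summed TPM of the 7 ductal markers was 25895 and 26471 in the stable and 18255 and 20036 in the transient libraries, and that of the 13 other markers 33.8 and 33.1 in the stable and 46.8 and 48.8 in the transient ones. The keratins make up most of the ductal sum, and CDH1 went the other way, with a log2 TPM of 7.26, 7.03, 7.51 and 7.75. The part of these marker levels in the differences between the models was not tested. All 13 protein-coding genes of the mitochondrial genome were listed at 0 in every library, so only the nuclear part of each complex could be described. TIMM50, a mitochondrial import gene that most cells use, was also listed at 0 in all 4, so a listed 0 does not show that a gene is not expressed.

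The OXPHOS genes were among the well expressed genes of PK-1. Of the 89, 82 were above the floor in at least 1 library and 79 had a TPM of 5 or more in all 4, which is 88.8% against 17.9% of all listed features. Together they took 2.08% of the total TPM with SPRR1A and 2.14% with DsRed in the stable model, and 1.75% with SPRR1A and 1.91% with GFP in the transient model. Because SPRR1A transcripts take up part of the transient SPRR1A total, the share there was 1.95% of the TPM of all other features. The 2 stable libraries were thus above the 2 transient ones on either basis. The 89 genes lie on 22 chromosomes. Of the 7 at the floor in every library, 4 are tissue isoforms of complex IV, and the others are the copy ATP5L2 and the pseudogenes COX8BP and ATP5J2LP.

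**Figure D1:**
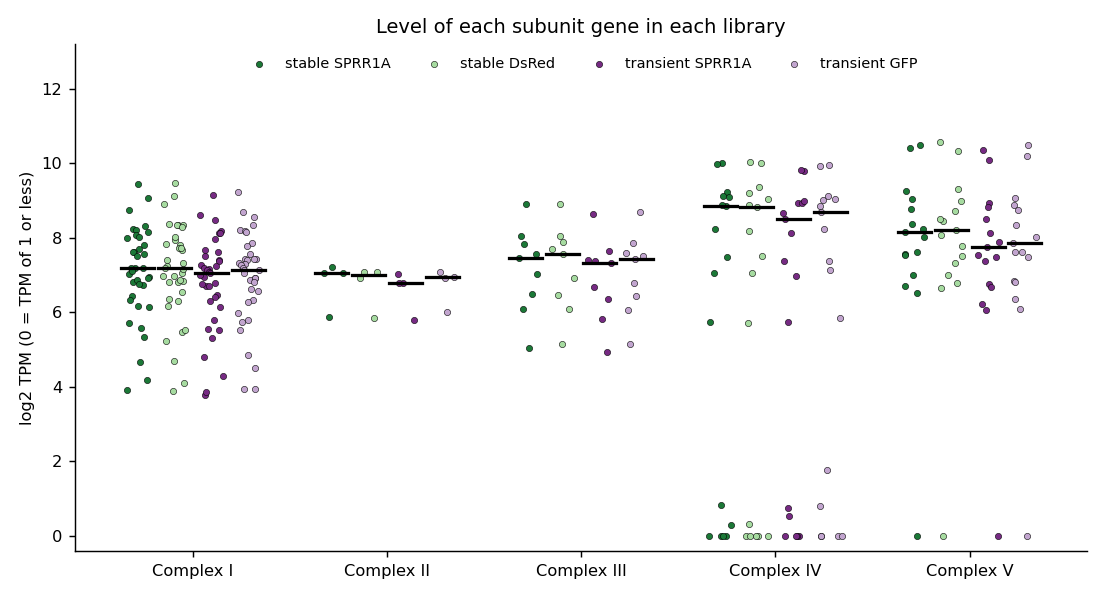
Level of each subunit gene in each library, as log2 TPM on the vertical axis, where a TPM of 1 or less is listed at 0; each point is 1 gene in 1 library, colors mark the 4 libraries, and black bars mark the median of the genes above the floor in at least 1 library. Complexes IV and V have the highest medians, and the genes at or near 0 belong to complex IV apart from 1 gene of complex V.

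In complex I, the median log2 TPM was 7.18, 7.18, 7.04 and 7.15. All 37 genes were expressed, over a range of 5.41 log2 units between the highest and the lowest mean. The accessory subunit NDUFB9 was highest, at 9.44, 9.48, 9.14 and 9.23 log2 TPM. NDUFS6, an accessory subunit of the arm that reaches into the matrix, followed with 9.07, 9.13, 8.62 and 8.70. The lowest was NDUFA5, an accessory subunit of the same arm, at 3.92, 3.90, 3.85 and 3.96. These levels put NDUFA5 within 0.10 log2 units in all 4 libraries, while both transient libraries were below both stable ones for NDUFB9 and NDUFS6.

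Complex II, succinate dehydrogenase, is also an enzyme of the citric acid cycle. Its iron-sulfur subunit SDHB was at 7.22, 7.09, 7.03 and 7.08 log2 TPM, and the flavoprotein SDHA was at 7.07, 7.10, 6.80 and 6.95. The membrane anchor SDHC was lowest, at 5.89, 5.84, 5.81 and 6.0. The mean levels of SDHB, SDHA and the other anchor, SDHD, lay between a TPM of 121 and 138, so their order carries little weight. Reads of SDHA can also match its pseudogene copies, which makes its level uncertain.

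In complex III, UQCRH, the hinge protein that helps cytochrome c dock, was highest at 8.89, 8.89, 8.64 and 8.69 log2 TPM. UQCRFS1, the Rieske iron-sulfur protein, followed at 8.05, 8.04, 7.64 and 7.87. The lowest was UQCRHL, an intronless copy of UQCRH, at 5.03, 5.15, 4.93 and 5.15, and reads of these 2 genes can be exchanged in counting. CYC1, which encodes cytochrome c1 and lies outside the name rule, was at 8.43, 8.34, 7.89 and 8.01, below the stable libraries in both transient ones.

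Complex IV, cytochrome c oxidase, had the highest median, 8.85, 8.84, 8.51 and 8.69 log2 TPM over the genes above the floor. COX7C was at 10.01, 10.03, 9.80 and 9.93, and COX6A1 at 9.98, 9.99, 9.83 and 9.94, a mean TPM of 984 and 981. Such a gap between 2 genes is smaller than the spread of either across the libraries. COX4I1, the widely expressed form of subunit 4 and outside the name rule, was at 9.44, 9.44, 9.32 and 9.38.

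The tissue isoforms of complex IV separated into forms with high values and forms listed at or near 0. The forms found in most tissues were high: COX6A1 and COX7C as above, COX6B1 at 8.93 to 9.21, COX7B at 8.95 to 9.36, COX8A at 8.98 to 9.13, COX7A2 at 7.37 to 7.50 and NDUFA4 at 6.99 to 7.14 log2 TPM. Their muscle, testis or otherwise restricted partners COX6A2, COX7A1, COX7B2 and COX8C were listed at 0 in all 4 libraries, as was COX4I2. Of the remaining restricted forms, NDUFA4L2, a form known to respond to hypoxia, was at 0.84, 0.32, 0.53 and 0.81 log2 TPM. COX6B2, a testis form, was at 0.28, 0, 0.75 and 1.78. Both stayed below a TPM of 5 everywhere, where a value moves by small amounts of signal.

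In complex V, ATP5E (epsilon) and ATP5B (beta) were the highest of all 89 genes. Both encode subunits of F1, the part of the synthase that includes the catalytic head. ATP5E was at 10.49, 10.57, 10.37 and 10.49 log2 TPM, and ATP5B at 10.41, 10.33, 10.08 and 10.20. The lowest expressed was ATP5J, a subunit of the peripheral stalk that holds the head still, at 6.52, 6.66, 6.07 and 6.10. Reads of ATP5E can match its processed copy ATP5EP2, which was itself listed at 4.65 to 5.48. The subunit c of the rotating ring is encoded by 3 genes with the same mature protein. Among these ATP5G1 was at 7.48 to 8.09, ATP5G3 at 6.69 to 7.01 and ATP5G2 at 6.22 to 6.79, an order that held in each library.

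Differences between libraries are given relative to the median log2 difference of all features with a TPM of 5 or more in both, which removes a shift of the whole library (0.06 for the stable pair, -0.18 for the transient pair, 0.12 for transient GFP against stable DsRed and -0.11 for transient SPRR1A against stable SPRR1A). The 4 comparisons share libraries and form a closed loop, so they are not independent of each other, and only each one's own values are given. Genes are counted as lower or higher past a small threshold, a relative log2 difference of 0.32, and past the study's threshold of 2-fold on the deposited values. Features count when they are above the floor in at least 1 of the 2 libraries. In bulk RNA, fewer cells expressing a gene and less RNA per cell cannot be told apart.

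In the stable model, most OXPHOS genes were slightly lower with SPRR1A than with DsRed, relative to the library median. The median relative log2 difference was -0.09 over 82 genes, beside 0.01 over all features. Of the 79 genes with a TPM of 5 or more in both libraries, 66 were below 0, with an SD of 0.10 between genes and 0.17 over all such features. Past 2-fold there was no OXPHOS gene, against 0.947% of all features. Past the small threshold 1 of 82 was lower, against a background of 6.06%, and 2 were higher, against 7.72%. At a TPM of 5 or more in both, these counts were 1 of 79 lower (background 2.62%) and 0 higher (3.14%). On the deposited values, without centring, the median was -0.03, beside 0.07 over all features, with 1 gene lower past the small threshold (background 4.46%) and 2 higher (11.4%). On the centred values the share of OXPHOS genes past each threshold was below that of all features.

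The gene lower past the small threshold in the stable model was ATP5I, which encodes subunit e of the membrane part of the ATP synthase. Its TPM was 283 with SPRR1A and 366 with DsRed, a relative log2 difference of -0.43. NDUFB10, of the membrane arm of complex I, followed at -0.28 and NDUFA6, which binds the acyl carrier protein of complex I, at -0.26. On the higher side, among genes with a TPM of 5 or more in both libraries, were ATP5F1, subunit b of the stalk, at 0.20, NDUFS1, the iron-sulfur subunit of complex I with the most clusters, at 0.17 and NDUFB5, of the membrane arm, at 0.09. The genes counted as higher past the small threshold were NDUFA4L2 and ATP5S, neither of which reached a TPM of 5 in both libraries. By complex the median was -0.11 for complex I, 0.03 for complex II, -0.08 for complex III, -0.07 for complex IV and -0.10 for complex V.

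In the transient model, the same genes lay slightly above the library median with SPRR1A. The median relative log2 difference was 0.06 over 82 genes, beside 0.00 over all features, and 64 of the 80 genes with a TPM of 5 or more in both were above 0, with an SD of 0.07 between genes. On the deposited values, without the shift of -0.18 taken out, the median was -0.12, beside -0.19 over all features. The sign of the difference thus rests on the centring, but the median was above that of all features either way. On the deposited values 1 gene was lower past the small threshold (background 16.7%) and 0 were higher (1.98%). Past 2-fold there was 1 gene of 82, COX6B2, against 0.889% of all features. After centring COX6B2 was also the 1 gene lower past the small threshold (background 4.81%), and 0 were higher (4.29%). At a TPM of 5 or more in both, 0 of 80 genes were lower (1.01%) and 0 were higher (1.28%).

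Among the genes with a TPM of 5 or more in both transient libraries, the highest relative differences were those of ATP5S, which encodes a coupling factor related to the ATP synthase, at 0.25, the read-through ATP5J2-PTCD1 at 0.20 and COX7A2 at 0.19. The lowest of these were NDUFA7, an accessory subunit of complex I, at -0.09, ATP5SL, which is related to complex I assembly, at -0.06 and ATP5C1, the gamma subunit of the rotating stalk, at -0.06. All complexes had a positive median, from 0.03 in complex II to 0.06 in complex V. ATP5S had a deposited log2 TPM of 2.72, 2.20, 3.08 and 3.01, so most of its relative value in the transient pair was the shift of the whole library.

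Between the stable and the transient model, 52 of 79 OXPHOS genes were below the median with SPRR1A in the stable pair and above it in the transient pair, 2 the reverse and 25 on the same side in both. Over all 9658 features with a TPM of 5 or more in all 4 libraries, 29.3% were below in the stable and above in the transient pair, against 65.8% of the OXPHOS genes. The contrast was not limited to OXPHOS genes. Genes of the cytosolic ribosome had a median of -0.11 in the stable and 0.09 in the transient pair, and proteasome genes -0.06 and 0.05. A test of this contrast between models was not possible.

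**Figure D2:**
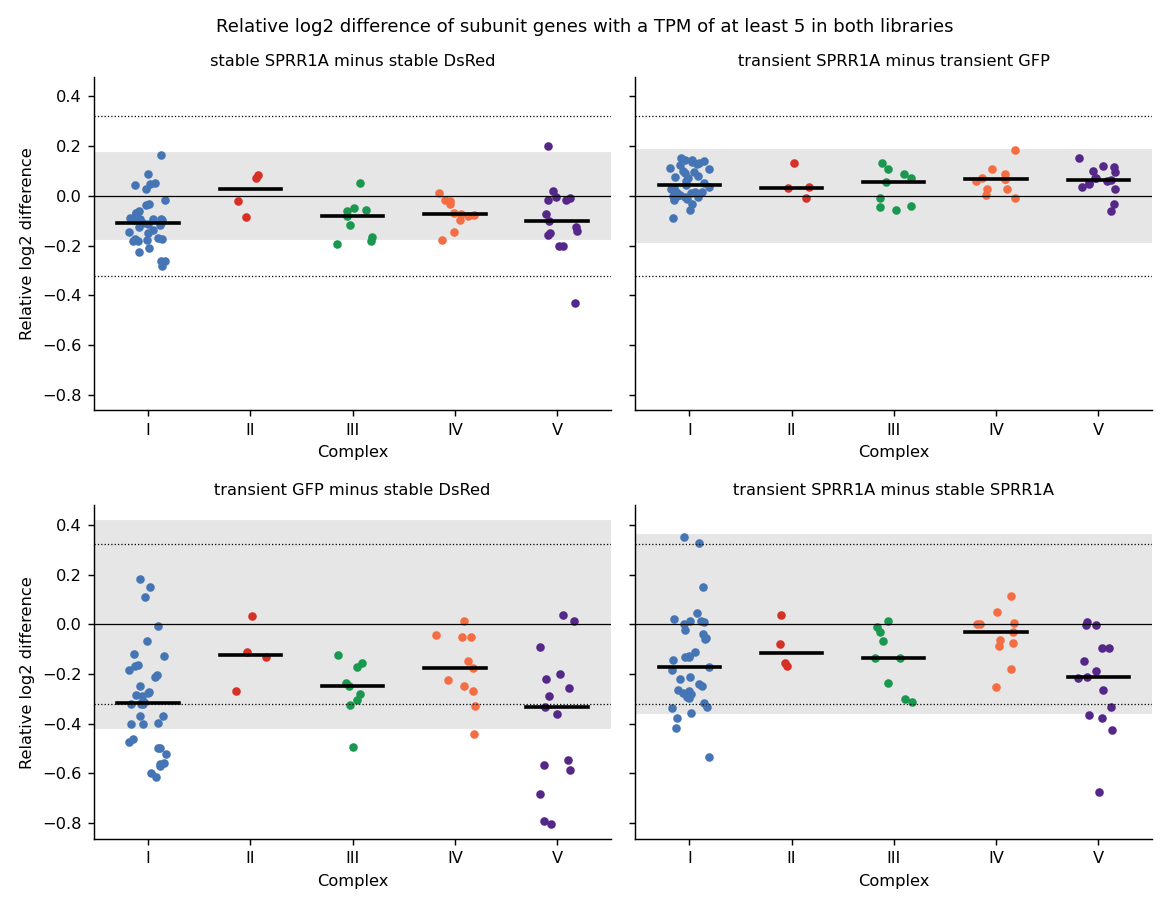
Relative log2 difference on the vertical axis for each subunit gene with a TPM of 5 or more in both libraries, by complex, in the 4 comparisons; points are genes, black bars medians, the grey band 1 SD of all such features around 0 and the dotted lines the small threshold of 0.32. The upper panels hold points mostly within the grey band, and in the lower panels the points reach down to -0.80 and -0.67.

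Larger differences separated the transient from the stable control. In transient GFP, the median relative log2 difference of OXPHOS genes from stable DsRed was -0.27 over 82 genes, beside 0.06 over all features. Of the 79 with a TPM of 5 or more in both, 72 were below 0, and their SD was 0.21 against 0.42 over all such features. Past 2-fold was COX6B2, which is listed at 0 in stable DsRed, against 7.52% of all features. Lower past the small threshold were 30 of 82 genes, against a background of 16.9%, and higher were 3, against 27.8%. On the deposited values, without centring, the median was -0.15, beside 0.18 over all features, with 18 genes lower, against 9.62%, and 3 higher, against 37.1%. With a TPM of 5 or more in both, 30 of 79 were lower (17.4%) and 0 were higher (21.0%). The models differ in vector, delivery, fluorescent protein and time since the vector was introduced, and these cannot be told apart.

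The lower genes were unevenly spread over the complexes. In complex I, 16 of 37 were lower past the small threshold, with a median of -0.32, and among the 7 catalytic core subunits encoded in the nucleus 5 were lower, with a median of -0.47. These were NDUFV1 (-0.57), which binds NADH, NDUFV2 (-0.47), NDUFS3 (-0.60), NDUFS7 (-0.40) and NDUFS8 (-0.52), whereas NDUFS1 was at 0.15. In complex V, 8 of 15 were lower with a median of -0.33, among them the 3 c ring genes ATP5G1 (-0.58), ATP5G2 (-0.57) and ATP5G3 (-0.33). Complex III had 2 of 9 lower (UQCRC1, UQCRH) and a median of -0.25, complex IV 2 of 13 (COX7B, COX6B1) and -0.15, and complex II 0 of 4 and -0.12. Over all features 16.9% were lower. Complexes I (43.2%) and V (53.3%) were above that share, whereas complexes III (22.2%) and IV (15.4%), with few genes each, were near it. With a TPM of 5 or more in both libraries, complex IV had 2 of 11 lower and a median of -0.18. The other 2 of the 30 were the read-throughs NDUFC2-KCTD14 (-0.56) and ATP5J2-PTCD1 (-0.41), whose reads cannot be told apart from those of their subunit genes in these values. NDUFB6, UQCRH, COX6B1 and ATP5G3 lay just past the small threshold, at -0.32 to -0.33. NDUFA8, NDUFS5 and NDUFC1 lay just short of it, each at -0.32.

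Among the genes with a TPM of 5 or more in both controls, the 3 lowest were all in complex V. ATP5D, the delta subunit at the foot of the catalytic head, had a TPM of 187, 182, 108 and 114, and its relative log2 difference between the controls was -0.80. For ATP5I the TPM was 283, 366, 218 and 231, and the difference between the controls was -0.79. ATP5J had a TPM of 91.8, 101, 67.3 and 68.7, and a difference of -0.68. In each of these 3 genes both transient libraries were below both stable ones. Not all of complex V was lower: the alpha subunit ATP5A1 was at 0.01 and the stalk subunit ATP5F1 at 0.04.

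The genes higher past the small threshold in transient GFP against stable DsRed were COX6B2, ATP5S and NDUFA4L2, none of which reached a TPM of 5 in both libraries. Among those that did, the 3 highest were all in complex I. NDUFB1, a small subunit of the membrane arm, had a TPM of 112, 115, 132 and 142, a relative difference of 0.18 between the controls. NDUFS1 followed at 0.15. NDUFB11, a membrane arm subunit encoded on the X chromosome, had a TPM of 131, 132, 152 and 155, and 0.11 between the controls. In NDUFB1 and NDUFB11 both transient libraries were above both stable ones, the opposite of most of their complex.

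With SPRR1A in both libraries, transient against stable, the median relative log2 difference was -0.14 over 82 genes, beside 0.03 over all features. Of the 80 genes with a TPM of 5 or more in both, 62 were below 0, with an SD of 0.19 against 0.36 over all such features. No OXPHOS gene was past 2-fold, against 3.59% of all features. Lower past the small threshold were 12 of 82 genes (background 12.3%) and higher were 4 (22.5%). At a TPM of 5 or more in both, 12 of 80 were lower (10.8%) and 3 were higher (16.1%), so the share of lower genes was near the background. On the deposited values, without centring, the median was -0.25, beside -0.08 over all features, with 30 genes lower, against 21.8%, and 2 higher, against 16.5%.

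The lowest of these genes was again ATP5D, at -0.67, followed by NDUFA7 at -0.53 and ATP5G1 at -0.43. NDUFA7 had a TPM of 72.5, 78.5, 46.2 and 55.9. Its level was lowest in transient SPRR1A, and both transient libraries were below both stable ones. On the higher side, ATP5S was at 0.47, NDUFB1 at 0.35 and NDUFB11 at 0.33, and COX6B2 was the remaining gene past the small threshold. By complex the median was -0.17 for complex I, -0.12 for complex II, -0.14 for complex III, -0.03 for complex IV and -0.21 for complex V.

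The 4 libraries were also set side by side after the whole-library shifts were removed. Both transient libraries were below both stable ones for 57 of 79 OXPHOS genes, against 37.7% of all 9658 features, and above both for 4 (NDUFB1, NDUFB11, SDHC and COX7A2L), against 37.5%. On the deposited values, without that shift removed, the counts were 59 and 2, against 31.6% and 30.2% of all features. The genes below made up 26 of 37 in complex I, 3 of 4 in complex II, 8 of 9 in complex III, 6 of 11 in complex IV and 11 of 15 in complex V. Complex IV thus had the smallest share, and its COX6C, COX8A and NDUFA4 were among those whose libraries overlapped. COX7A2L, named for its likeness to COX7A2, helps complexes III and IV associate.

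**Figure D3:**
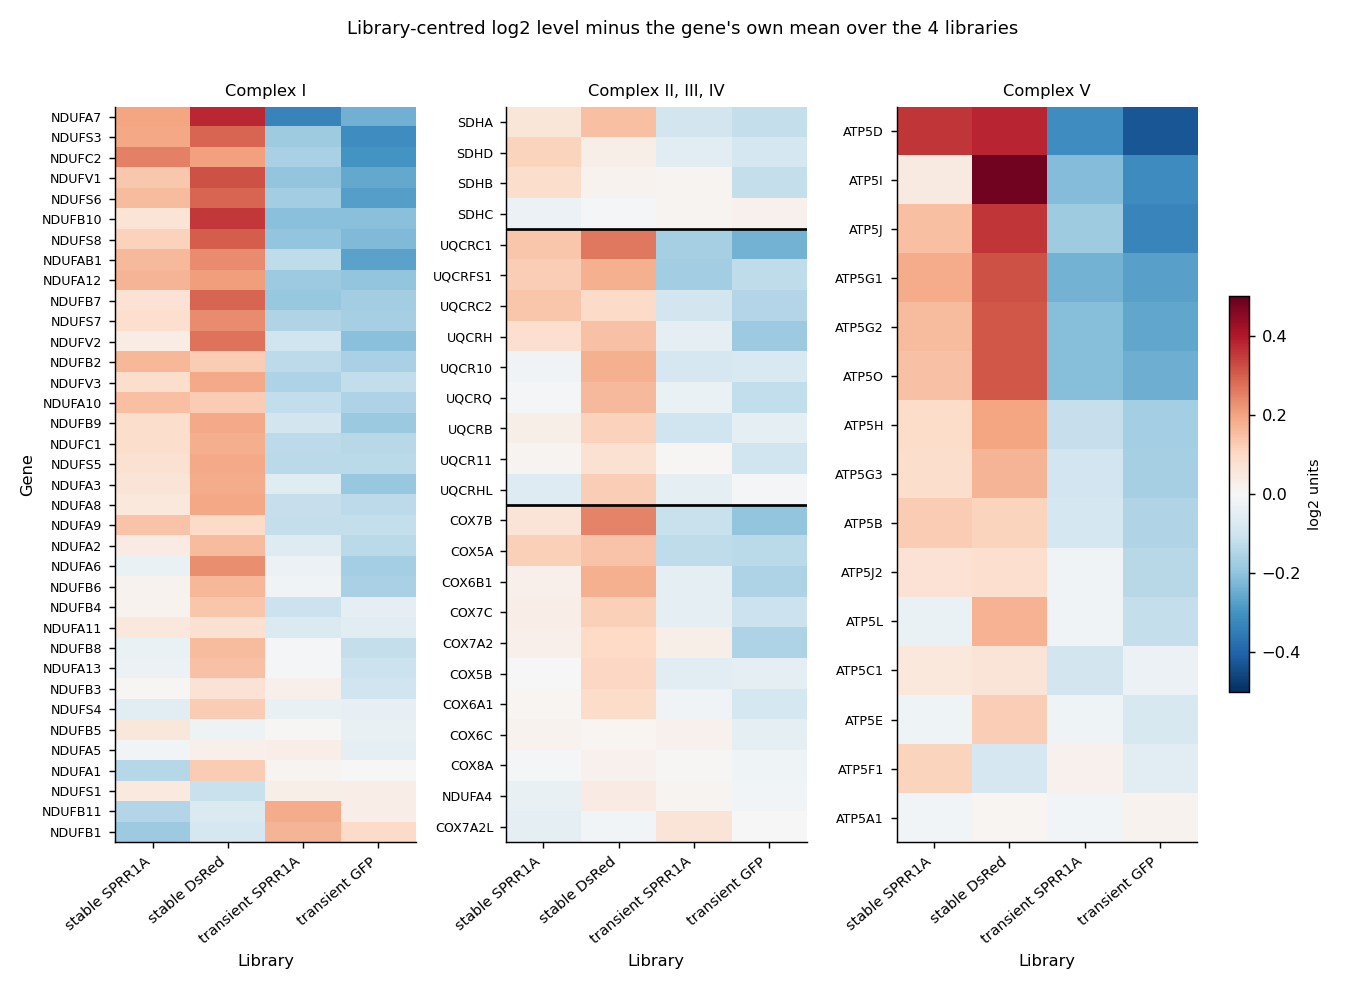
Heat map of subunit genes with a TPM of 5 or more in all 4 libraries, with genes as rows, libraries as columns and color for the library-centred log2 level minus the gene's own mean over the 4 libraries, in log2 units. The 2 stable columns are mostly red (above the gene's mean) and the 2 transient columns mostly blue (below it), with NDUFB1 and NDUFB11 the other way.

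Subunit transcripts are short, and values in these libraries moved with transcript length and base composition. Features were split into 4 classes of equal size by each property. The median length of the annotated canonical transcript (GENCODE 44) was 804 bases for the OXPHOS genes and 3056 for all features with a TPM of 5 or more in all libraries, and the median GC content was 47.5% and 49.0%. The canonical form need not be the one that PK-1 cells use. In transient GFP against stable DsRed, the other features of the shortest class had a median relative log2 difference of -0.18, and the next classes -0.03, 0.07 and 0.15. The 60 OXPHOS genes of the shortest class had a median of -0.29, and the 9, 3 and 7 in the next classes -0.27, -0.20 and -0.16. Within each class the OXPHOS genes were therefore lower than the other features.

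By GC content, the median of other features in the same comparison went from 0.19 in the class with the lowest GC through 0.05 and -0.06 to -0.13 in that with the highest. The OXPHOS genes of these classes were at -0.16, -0.27, -0.30 and -0.46, from 17, 27, 22 and 13 genes. Within the shortest class by length, split by GC content, the other features were at -0.02, -0.14, -0.19 and -0.25 from low to high GC. The OXPHOS genes were at -0.22, -0.26, -0.32 and -0.48. That length class spans 56 to 1866.5 bases, so length still varied within it. ATP5D, the lowest of the genes, has a GC content of 69.5%. The part of length and GC content in the differences was not tested beyond these classes.

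**Figure D4:**
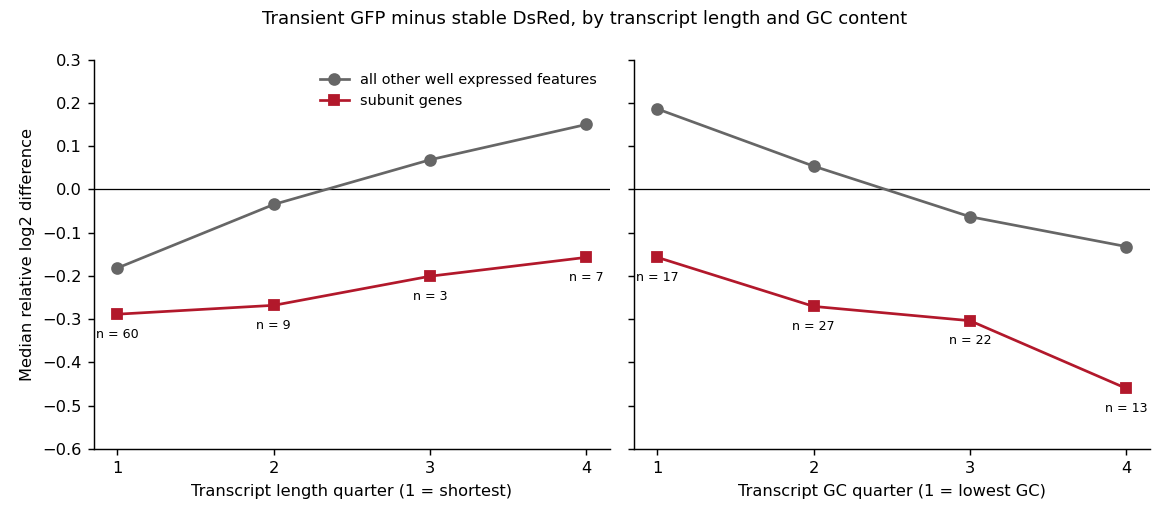
Median relative log2 difference of transient GFP from stable DsRed, on the vertical axis, by class of transcript length (left) and of transcript GC content (right), for the subunit genes (red squares, with their number) and all other features with a TPM of 5 or more (grey circles). Both lines rise with length and fall with GC content, and the red line lies below the grey one in every class, at -0.29 against -0.18 in the shortest.

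In the stable pair, the other features of the shortest class had a median of -0.08 and the 60 OXPHOS genes -0.11, and in the transient pair the values were 0.04 and 0.06. By GC content, from low to high, the other features of the stable pair were at 0.11, 0.04, -0.04 and -0.09 and the OXPHOS genes at -0.07, -0.07, -0.10 and -0.13. In the transient pair the other features were at -0.03, -0.01, 0.02 and 0.01 and the OXPHOS genes at 0.07, 0.01, 0.07 and 0.06. Among short transcripts with the lowest GC, the 7 OXPHOS genes were at -0.08 against 0.02 for other features in the stable pair and at 0.10 against 0.03 in the transient pair. Among short transcripts of the highest GC the values were -0.14 against -0.12 and 0.05 against 0.03. The gap between OXPHOS genes and other features was thus wider at low than at high GC in the stable pair.

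The promoters of the OXPHOS genes were also searched for motifs, as a description of their sequence. Background knowledge names NRF1, the ETS factor GABP and YY1 as activators of many OXPHOS genes. RefSeq windows (GRCh38.p14) from 250 bases before to 50 after a start site of the gene were given for 70 of the 89 genes. The letters searched on both strands were CGCANGCG for NRF1, CCGGAAG for ETS factors and AAGATGGCG for YY1. The last 3 letters of the ETS motif are the first 3 of the YY1 motif, but in 0 of the 70 windows did matches of different motifs overlap. NRF1 letters were in 34.3% of the 70 windows, against 10.6% of 27305 promoters and 20.6% of 7843 promoters of features with a TPM of 5 or more in all libraries. ETS letters were in 25.7%, against 10.7% and 21.9%. YY1 letters were in 11.4%, against 1.85% and 4.65%.

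Of the 30 OXPHOS genes lower past the small threshold in transient GFP against stable DsRed, 25 had a window. NRF1 letters were in 11 of these 25, ETS letters in 7 and YY1 letters in 5, and any of the 3 in 17. Among the 40 other OXPHOS genes with a window and a TPM of 5 or more, the numbers were 12, 11, 3 and 21. Any of the 3 was thus in 68.0% of the 25 and 52.5% of the 40. The background was 40.3% of promoters of features with a TPM of 5 or more in all libraries and 20.3% of all promoters. For ETS letters the shares of the 25 and the 40 were near each other, 28.0% and 27.5%. A match is a description of the sequence and does not show that a factor binds there. The NRF1 and ETS letters are mostly G and C, and the sets compared were not matched for GC content. Whether the motifs had a part in the differences was not tested.

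For each motif, the 3 matching genes with the lowest relative difference in that comparison are given. Each is shown as 30 bases around the match on the strand of the gene, with the motif in capitals. ATP5D, the lowest OXPHOS gene in that comparison, had no window, so its promoter was not searched. The sequences are from RefSeq (GRCh38.p14), and the 2 ETS matches in ATP5I and NDUFS3 are the reverse complement of the searched letters. ATP5J carries all 3 motifs.
ATP5I, NRF1, chr4:674476-674505, minus strand: cgcagcaactgCGCAGGCGcagccgatgat
ATP5J, NRF1, chr21:25735155-25735184, minus strand: cactcaaagagCGCATGCGtacagagcaag
ATP5G2, NRF1, chr12:53676106-53676135, minus strand: ggcccgggtcaCGCATGCGctgagccttcc
ATP5I, ETS, chr4:674255-674284, minus strand: tgcaggttgtgCTTCCGGtgcggaggtcag
ATP5J, ETS, chr21:25735066-25735095, minus strand: tgccaggggacCCGGAAGcacttaccctcc
NDUFS3, ETS, chr11:47578961-47578990, plus strand: cggaacctccgCTTCCGGctccacgtccgc
ATP5J, YY1, chr21:25735092-25735121, minus strand: aggcgaagaaAAGATGGCGgaggctgtgcc
NDUFA7, YY1, chr19:8321342-8321371, minus strand: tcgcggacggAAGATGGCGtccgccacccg
UQCRC1, YY1, chr3:48609604-48609633, minus strand: ctgcagctggAAGATGGCGgcgtccgtggt

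In 65 of the 70 windows the start site was the outer end of the gene as RefSeq lists it, and in 5, among them ATP5J and ATP5G2, it lay inside the gene, so that the printed matches of these 2 genes do too. Counted in bases from the start site of the window, the NRF1 letters begin at -218 in ATP5I, at -119 in ATP5J and at -41 in ATP5G2. Those of YY1 begin at 14 in NDUFA7 and at 23 in UQCRC1.

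Genes that build or serve the OXPHOS complexes were described from lists of known members. In transient GFP against stable DsRed the 60 assembly factors had a median relative log2 difference of -0.27, with 18 lower and 1 higher past the small threshold, against 16.9% and 27.8% of all features. The lowest factors by complex were COA1 (-0.58), ECSIT (-0.51) and NDUFAF2 (-0.50) for complex I, SDHAF1 (-0.47) for complex II, UQCC1 and C16orf91 (both -0.40) for complex III, SCO1 (-0.43), which delivers copper, for complex IV, and ATPAF2 (-0.45) for complex V. SMIM4, a complex III factor, was the higher one, at 0.51. In the stable pair SMIM4 was at 0.69 and SDHAF3 at 0.41, while the list as a whole had a median of -0.03.

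Other mitochondrial lists also had a median below 0 in this comparison, and their counts of lower genes stand beside the same 16.9% of all features. The mitochondrial ribosome, which makes the subunits encoded in mitochondria, had a median of -0.33 with 41 of 78 genes lower past the small threshold, led by MRPL17 at -0.99. Protein import had -0.42 with 12 of 19 lower, led by TIMM13 (-0.81) and TOMM40 (-0.77), a channel of the outer membrane. The electron carriers and coenzyme Q enzymes had -0.28 with 8 of 16 lower, led by COQ2 at -0.88. The citric acid cycle had -0.14 with 4 of 17 lower (23.5%), led by FH at -0.42, a share nearer to that of all features.

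Lists outside the mitochondria gave a scale for these values. The cytosolic ribosome, whose transcripts are also short, had a median of -0.33 with 43 of 85 genes lower (50.6%), and the proteasome had -0.11 with 2 of 31 lower (6.45%). A lower median in transient GFP was therefore not limited to mitochondrial lists. With SPRR1A in both libraries the medians were -0.12 for the cytosolic ribosome, 0.03 for the proteasome and -0.20 for the mitochondrial ribosome. RPL36A, of the cytosolic ribosome, had the largest single value of these 2 ribosome lists and the proteasome, -1.39 between the controls and 1.05 in the transient pair.

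**Figure D5:**
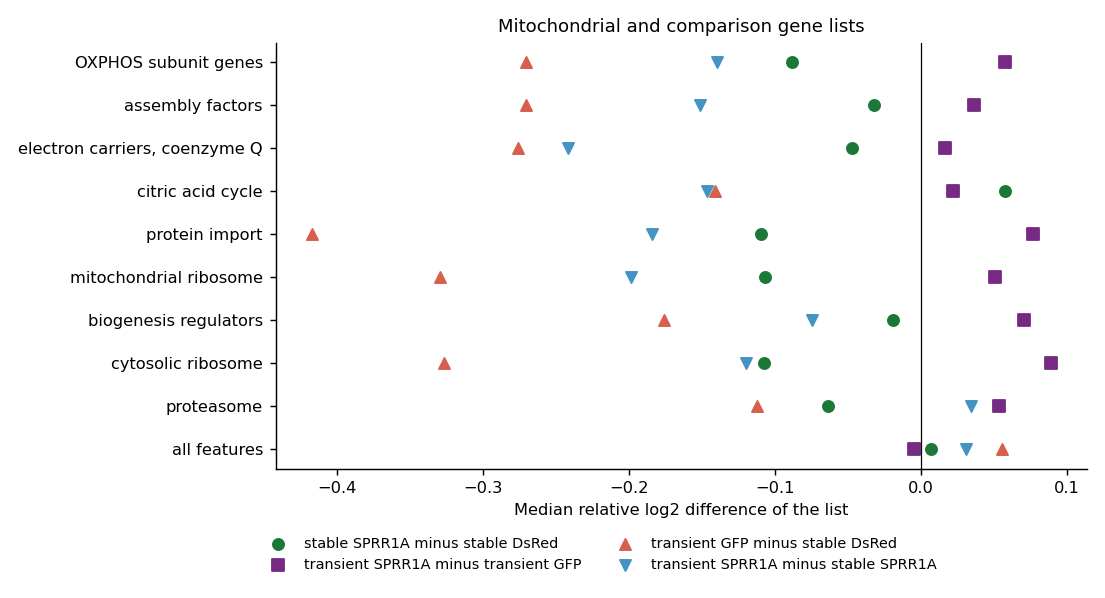
Median relative log2 difference, on the horizontal axis, of the OXPHOS subunit genes and 8 other gene lists and of all features, with 1 marker per comparison. For transient GFP against stable DsRed (triangles pointing up) the lists lie between -0.42 (protein import) and -0.11 (proteasome), whereas all features lie at 0.06.

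Among the 19 regulators of mitochondrial biogenesis, the median in transient GFP against stable DsRed was -0.18. Past the small threshold 3 of the 18 above the floor were lower and 3 higher, 16.7% each way, so the lower share was at the 16.9% of all features and the higher share below their 27.8%. YY1 had a log2 TPM of 6.04, 5.85, 6.41 and 6.64, a relative difference of 0.66 between the controls. MYC, another activator, was at 7.39, 7.34, 7.71 and 7.82, and 0.35 between the controls. Both genes were higher in the transient libraries, in which most OXPHOS genes were lower. The part of these regulators in the differences was not tested. TWNK, the helicase of mitochondrial DNA replication, was at -0.53 and GABPB1, a partner of GABP, at 0.39. NRF1 (-0.03), TFAM (0.06) and ESRRA (-0.19) stayed within the small threshold, and the coactivator PPARGC1A was listed at 0 in all 4 libraries.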

How the data were processed

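RNA from 4 PK-1 cultures, 1 per condition, was sequenced by the authors as stranded, paired-end mRNA libraries. Alignment to hg38 transcript sequences was done by the authors in Strand NGS with default settings. The authors then computed TPM and deposited it as log2 TPM per gene, with a floor at 0. The software version is not given in the sources used here. How reads matching several genes were shared, and so the values of near-identical copies, is unknown, as is the depth.

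OXPHOS genes were selected by symbol and matched by Entrez identifier to RefSeq (GRCh38.p14) for all 89 genes, 22 of which carry a newer symbol there. Log2 differences were computed between libraries, relative to the median over features reaching a TPM of 5 in both. The spread given is the SD between genes. For comparison across the 4 libraries, each was centred on its median deviation from feature means. The members, gene lists and tests were chosen with earlier results of these data known. Named genes were the 2 highest and the lowest of each complex by mean level, tissue isoforms, genes past 2-fold and members other than subunits. The 3 largest differences per direction and comparison were also named, and for other lists up to 3 genes with the largest absolute difference. Both of these choices were made among genes with a TPM of 5 or more in both libraries. The core subunits of complex I, the genes spelled out near the threshold and CYC1, COX4I1, ATP5A1, MYC, NRF1, TFAM, ESRRA and PPARGC1A were picked after their values were seen. Alternatives were log2(TPM + 1), log2(TPM + 0.1), other filters on TPM, no centring, SPRR1A left out of the total and another set of subunits. The GC classes and the count across the 4 libraries were added after the data were seen. The centring and the threshold calls were tested on a simulated pair of libraries. Its noise between genes was smaller than the measured spread, so it checked the calculation and not the rate of false calls. Python 3.11.15, numpy 2.4.6, pandas 2.3.3 and matplotlib 3.10.9 were used. Counts and medians include 1 gene that is not reported here by itself. The 19 genes without a promoter window were not used in the motif counts.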

Additional observations from a re-analysis of the deposited data

Results flagged for a closer look

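The OXPHOS genes lay on opposite sides of the library median in the SPRR1A comparisons of the 2 models, a contrast that was not tested. The median relative log2 difference was -0.0879 in the stable and 0.0576 in the transient pair over all OXPHOS genes. It was -0.109 and 0.0429 in complex I, -0.0797 and 0.0544 in complex III, -0.0693 and 0.0611 in complex IV, and -0.100 and 0.0632 in complex V. Complex II had a positive median in both pairs. Other lists also lay on opposite sides, with a stable and a transient median of -0.108 and 0.0888 for the cytosolic ribosome. The values were -0.110 and 0.0770 for protein import, -0.106 and 0.0511 for the mitochondrial ribosome and -0.0636 and 0.0533 for the proteasome. The citric acid cycle was positive in both, at 0.0578 and 0.0222. Each value comes from 1 library per condition. Without centring the transient median of the OXPHOS genes was -0.12, beside -0.19 over all features. Its sign thus turned, while it stayed above that of all features.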

How the results depend on the processing

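No paired analysis was possible because a single library stood for every condition. Of the values recomputed under an alternative, 85 kept their direction and stayed within 0.1 log2 units (medians) or 1.5 times (counts) of the reported value, 15 moved further and 1 reversed. Within that tolerance, the stable median went from -0.09 to -0.03 without centring. Leaving SPRR1A out of the total rescales a whole library, which the centring removes. The centred medians and small-threshold counts under that setting therefore could not change, yet they are among the 85. Without centring, the median log2 difference of the OXPHOS genes in the transient pair was -0.12, a reversed sign, beside -0.19 over all features. It was -0.15 for transient GFP against stable DsRed, with 18 genes lower past the small threshold. For transient against stable SPRR1A it was -0.25, with 30 lower and 2 higher. Counting genes that reach a TPM of 5 in both libraries, which leaves fewer genes, 0 were higher past the small threshold in the stable pair, 0 lower and 0 past 2-fold in the transient pair, and 0 higher and 0 past 2-fold for transient GFP against stable DsRed. With log2(TPM + 1), 1 gene was higher in the stable pair. COX6B2 in the transient pair was no longer past 2-fold (count 0) with log2(TPM + 1), with log2(TPM + 0.1), with SPRR1A left out of the total, and with centring. With 1 library per condition and unknown depth, differences of this size cannot be set against the spread between replicates.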
